A study of Mus musculus with 25 samples.

Results

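Transcripts of 7 genes that break down stored fat in adipocytes, or that help or restrain that breakdown, were followed in 3T3-L1 cells. These are the lipase genes Pnpla2, Lipe, Mgll and Pnpla3, the cofactor genes Abhd5 and G0s2, and the glycerol channel gene Aqp7. The genes were taken by their symbol in the platform annotation, which gave 15 of the 45101 probe sets on the array and 7 of 18194 genes. By 24 h the transcripts of 6 of the 7 genes were lower in CLA than in LA arrays, against 3.72% of all genes. At 8 h Mgll and G0s2 were called lower, against 0.561% of all genes. Their 8 h calls were lost in 14 of 20 alternatives for Mgll and in 6 of 20 for G0s2. On the scale of intensity plus a small offset, Mgll stood at 18% of its LA level at 24 h, G0s2 at 27.3%, Lipe at 41.1%, Pnpla2 at 45.8% and Abhd5 at 67.8%. The transcript for the lipase inhibitor G0s2 thus fell alongside those of the lipases. These calls came from a fit with a term for 5 sets of arrays. Without that term none of the 7 genes passed the adjusted threshold of limma at any time, and 0.00693%, 0.00693%, 0% and 0% of all genes were called lower at 4, 8, 12 and 24 h. With CLA and LA arrays of 1 number and time taken as a pair, 0 of 7 passed at 12 h and 1, Mgll, at 24 h, against 0.0208% and 0.146% of all genes called lower. Before adjustment and without array sets 0, 2, 2 and 3 of the 7 were lower at p under 0.05, against 2.27%, 3.68%, 2.07% and 2.68% of all genes.

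3T3-L1 is a mouse cell line that grows as fibroblast-like preadipocytes and is turned into fat cells in culture. The CLA groups held 2, 3, 4 and 3 arrays at 4, 8, 12 and 24 h, and the LA groups, the controls of the study, held 3, 3, 4 and 3 at the same times, which makes 12 CLA and 13 LA arrays. The labels do not spell out CLA and LA. In adipocyte work they usually mean conjugated linoleic acid and linoleic acid. The sources used here give no dose, isomer or days of differentiation. All cells came from the same line, without a genetic change named in the labels, and the arrays of a group are labelled as biological replicates. The limma p-values measure the spread between these arrays that is left after the terms of each fit, taken over all groups. The number of arrays limits the precision.

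Lipolysis, the release of fatty acids and glycerol from the triglyceride of a lipid droplet, runs in steps. Pnpla2 (adipose triglyceride lipase) removes the first fatty acid, with Abhd5 (CGI-58) as its coactivator and G0s2 as its inhibitor. Lipe (hormone-sensitive lipase) acts mainly on the diglyceride that results, Mgll (monoglyceride lipase) on the monoglyceride, and Aqp7, an aquaglyceroporin, lets glycerol leave the cell. Pnpla3 (adiponutrin) is a lipid droplet protein related to Pnpla2, and in mouse fat its transcript is known to rise with feeding and to drop with fasting.

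The promoters of Mgll, G0s2 and Pnpla3 are shown because these 3 genes had CLA arrays that all lay below the LA arrays at both 12 and 24 h. The sequences are those of RefSeq for GRCm38.p6, from 250 bases before the start site to 50 after it. The array values themselves carry no coordinates. Capitals mark matches, on either strand, to a CRE (TGACGTCA), an E-box (CACGTG) or a GC box (GGGCGG). The windows are chr6:88724162-88724461 on the plus strand for Mgll, chr1:193273139-193273438 on the minus strand for G0s2 and chr15:84167566-84167865 on the plus strand for Pnpla3.
Mgll: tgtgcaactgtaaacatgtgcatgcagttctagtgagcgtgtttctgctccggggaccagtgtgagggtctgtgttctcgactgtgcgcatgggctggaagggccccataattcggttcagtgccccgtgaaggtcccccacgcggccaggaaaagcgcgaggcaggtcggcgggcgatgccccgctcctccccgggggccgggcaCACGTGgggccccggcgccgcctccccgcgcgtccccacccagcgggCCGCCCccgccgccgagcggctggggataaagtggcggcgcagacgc
G0s2: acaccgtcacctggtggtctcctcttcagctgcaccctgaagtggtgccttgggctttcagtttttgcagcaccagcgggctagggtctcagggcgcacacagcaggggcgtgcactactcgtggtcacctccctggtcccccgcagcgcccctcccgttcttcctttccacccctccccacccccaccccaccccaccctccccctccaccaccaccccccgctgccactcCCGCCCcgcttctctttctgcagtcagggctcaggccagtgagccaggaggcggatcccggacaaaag
Pnpla3: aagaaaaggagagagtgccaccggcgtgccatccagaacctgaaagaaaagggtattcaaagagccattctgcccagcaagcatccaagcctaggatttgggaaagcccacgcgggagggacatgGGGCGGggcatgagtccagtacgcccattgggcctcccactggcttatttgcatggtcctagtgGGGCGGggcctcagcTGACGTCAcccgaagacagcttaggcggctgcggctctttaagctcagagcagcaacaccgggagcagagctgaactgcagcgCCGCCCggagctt

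In the Mgll window the E-box, a site of bHLH factors, begins at position -44 from the start site and a GC box at 3. In the G0s2 window a GC box begins at -18. In the Pnpla3 window the CRE, the palindrome that CREB binds, begins at -46, and GC boxes lie at -125, -61 and 37. GC boxes were found in 7 of 10 promoter windows of the 7 genes, against 35.7% of 32851 mouse promoter windows of that length. These windows belong to 6 genes, all but Aqp7. The E-box was found in 2 of the 10 windows (Lipe and Mgll) and in 7.15% of all windows. The CRE was found in 1 (Pnpla3) and in 1.79% of all windows. A nuclear receptor half-site (AGGTCA) occurred in 3 of the 10 windows (of Abhd5 and Aqp7) and in 16.3% of all windows. An EGR motif (GCGTGGGCG) occurred in 1 (Lipe), where it overlaps a GC box, and in 0.612% of all windows. The C/EBP motif TTGCNNAA (10.8% of all windows) and the DR1 element, a direct repeat of AGGTCA spaced by 1 base (0.0396%), matched none of the 10 windows. These matches describe letters and not occupied sites.

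All levels below are log2(intensity + 0.984) after quantile normalisation, for the brightest probe set of each gene, and a level is not comparable between genes. Differences are CLA minus LA on that scale with their standard errors, from limma over all 25 arrays, and a gene is said to have risen or fallen where its Benjamini-Hochberg adjusted p over 14428 genes was under 0.05. All 7 genes passed the filter on dim genes. In LA arrays 6 of them were bright, with Pnpla2 at a median percentile of 99.3, G0s2 at 98.7, Lipe at 98.2, Abhd5 at 97.9, Mgll at 89.9 and Pnpla3 at 88.6 of all genes on an array. Aqp7 was dim, at a median percentile of 64.3, and exceeded the array's median in 16 of 25 arrays.

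The arrays were clustered on their values alone and the tree was cut into 5 sets, lettered A to E here, for which the labels have no name. The number of 5 was set with earlier results of these data known, and no other number is among the alternatives. Set B held the 8 arrays numbered replicate 2, and set C held 5 dim arrays. The sets were made from the same values that are tested, so p-values with the set term may be too small. At 12 and 24 h every CLA array had an LA partner in its set, so that the term leaves the differences as they are and changes the errors. Those partners also carry the same replicate number, and the deviations of same-numbered arrays from their group means correlated with r over 0.1 in all 7 pairs of these 2 times. The adjusted p of the fit with each pair as a block is therefore given as the paired one for calls at 12 and 24 h. That fit also blocks same-numbered arrays at 4 and 8 h, and their spread enters its errors. At 4 and 8 h only 2 sets held both CLA and LA arrays. LA replicate 1 at 4 h and replicate 3 of both treatments at 8 h had no partner in their set. Whether groups overlap at 4 and 8 h therefore also depends on the sets. The median standard error of the 7 genes at 24 h was 0.28 with the term and 0.68 without it. LA replicate 1 had a raised 3′/5′ signal ratio of actin, which reads RNA integrity, at 4 h (8.11) and at 12 h (5.67). Elsewhere that ratio ran from 1.43 to 3.32 (23 arrays).

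**Figure D1:**
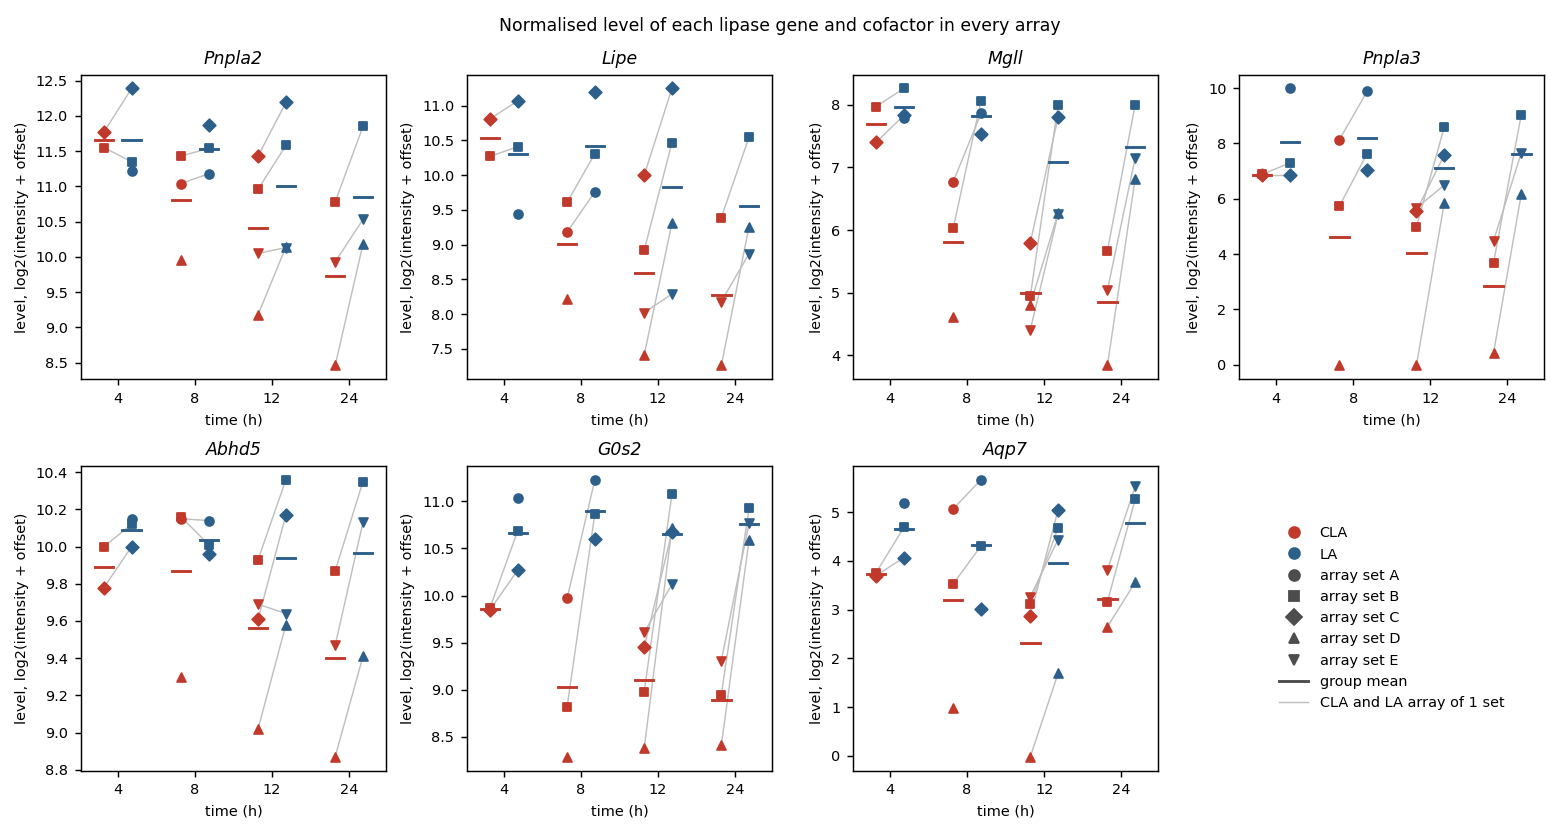
Level of each gene in every array, log2(intensity + 0.984), by time in h, with CLA (red) left of LA (blue); marker shapes are the 5 array sets, short bars are group means and grey lines join CLA and LA arrays of 1 set. At 24 h all 21 lines slope down towards CLA, while the arrays of a group lie up to several log2 units apart.

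G0s2, the inhibitor, was the only gene whose CLA and LA groups did not overlap at any of the 4 times. Its level was 9.85 and 9.87 in the 2 CLA arrays at 4 h, against 11.04, 10.69 and 10.27 in LA. At 8 h it was 9.97, 8.82 and 8.29 in CLA, against 11.23, 10.87 and 10.60 in LA. At both times the groups did not overlap. At 12 h the values were 9.61, 8.98, 8.38 and 9.45 in CLA, against 10.12, 11.08, 10.72 and 10.68 in LA. At 24 h they were 9.31, 8.95 and 8.41 in CLA, against 10.77, 10.93 and 10.59 in LA. Every CLA array of a time thus lay below every LA array of that time, at all 4 times. This held at 4, 8, 12 and 24 h for 5.38%, 7.15%, 1.16% and 7.05% of all genes. The difference at 4 h, -0.56 ± 0.32 (limma adjusted p = 0.576), did not pass. G0s2 fell at 8 h by a difference of -1.71 ± 0.29 (adjusted p = 0.00885), at 12 h by -1.54 ± 0.24 (adjusted p = 0.00426) and at 24 h by -1.87 ± 0.28 (adjusted p = 0.00173). Without array sets the adjusted p of limma was 0.213, 0.279 and 0.243 at these 3 times. The 12 and 24 h calls were lost in the paired fit too (adjusted p = 0.16 and 0.0959). The 8 h call was also lost with the values as deposited (adjusted p = 0.115) and without the dim array set (adjusted p = 0.0586), without CLA replicate 2 (0.0824) or without LA replicate 2 (0.0527).

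Pnpla2, the triglyceride lipase that G0s2 restrains, moved late and less. It had 11.77 and 11.55 in CLA at 4 h, against 11.22, 11.35 and 12.39 in LA, and 11.04, 11.43 and 9.96 in CLA at 8 h, against 11.18, 11.54 and 11.87 in LA. The groups overlapped at both times. At 12 h it had 10.05, 10.96, 9.18 and 11.43 in CLA, against 10.13, 11.58, 10.14 and 12.19 in LA. At 24 h it had 9.93, 10.78 and 8.46 in CLA, against 10.53, 11.85 and 10.18 in LA. The groups overlapped at 12 and 24 h as well, although in each array set the CLA array was the lower one, by 0.08 to 0.96 at 12 h and by 0.60 to 1.72 at 24 h. The difference was 0.03 ± 0.23 at 8 h (95% interval -0.47 to 0.52, limma adjusted p = 0.975) and -0.61 ± 0.19 at 12 h (adjusted p = 0.0897), and Pnpla2 fell at 24 h by a difference of -1.13 ± 0.22 (adjusted p = 0.00961). The 24 h call ended without array sets (adjusted p = 1), in the paired fit (0.363), with the values as deposited (0.11), without LA replicate 2 (0.0619) and without CLA replicate 3 (0.0509). At 8 h the difference turned to -0.72 without array sets. A dimmer Pnpla2 probe set differed by -0.49 ± 0.28 at 24 h (adjusted p = 0.502 over all probe sets).

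Abhd5, the coactivator of Pnpla2, moved least. Its level ran from 9.78 to 10.003 in CLA at 4 h, against 10.0004 to 10.15 in LA, and from 9.30 to 10.16 in CLA at 8 h, against 9.96 to 10.14 in LA. At 24 h its level was 9.47, 9.87 and 8.87 in CLA, against 10.13, 10.35 and 9.41 in LA. At 12 h it was 9.69, 9.93, 9.02 and 9.61 in CLA, against 9.64, 10.36, 9.58 and 10.17 in LA. Groups overlapped at all 4 times, and in set E at 12 h the CLA array was the higher one by 0.05. Abhd5 fell at 24 h by a difference of -0.56 ± 0.12 (limma adjusted p = 0.0168). The differences of -0.17 ± 0.14 at 4 h, 0.06 ± 0.13 at 8 h (95% interval -0.21 to 0.33) and -0.38 ± 0.10 at 12 h (adjusted p = 0.734, 0.862 and 0.0558) did not pass. The 24 h call was lost without array sets (adjusted p = 1), in the paired fit (0.453), with the values as deposited (0.523), without CLA replicate 2 (0.0625) or 3 (0.0801) and without LA replicate 1 (0.0879) or 2 (0.0702). With the mean of the 3 Abhd5 probe sets the 24 h difference was -0.11 (adjusted p = 0.942), and the second brightest of them differed by -0.22 ± 0.13 (adjusted p = 0.543 over all probe sets).

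Lipe, the diglyceride step, had 10.81 and 10.27 in CLA at 4 h, against 9.44, 10.41 and 11.07 in LA. At 8 h it had 9.18, 9.61 and 8.22 in CLA, against 9.76, 10.31 and 11.20 in LA, with no overlap. The 8.22 of CLA and the 11.20 of LA had no partner in their array set. At 12 h it had 8.02, 8.92, 7.41 and 9.999 in CLA, against 8.29, 10.47, 9.31 and 11.25 in LA. At 24 h it had 8.18, 9.39 and 7.26 in CLA, against 8.87, 10.55 and 9.26 in LA. The later groups overlapped, but each CLA array lay below the LA array of its set. Lipe fell at 12 h by a difference of -1.25 ± 0.23 (limma adjusted p = 0.00991) and at 24 h by -1.28 ± 0.27 (adjusted p = 0.0138), while -0.64 ± 0.28 at 8 h (adjusted p = 0.284) did not pass. At 12 and 24 h the adjusted p was 1 both times without array sets, 0.386 and 0.482 in the paired fit, and 0.0912 and 0.188 with the values as deposited. The 12 h call also ended without the dim array set (0.0899), and the 24 h call without CLA replicate 2 (0.0553) or 3 (0.0788) and without LA replicate 2 (0.0657) or 3 (0.0718). With the mean of both Lipe probe sets, of which the dimmer lay at or below 0 in 6 arrays, the differences were -0.37 at 12 h (adjusted p = 0.685) and -1.57 at 24 h (adjusted p = 0.0551).

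Mgll, the last lipase of the chain, had 7.40 and 7.97 in CLA at 4 h, against 7.79, 8.26 and 7.83 in LA, and the groups overlapped. At 8 h it had 6.77, 6.03 and 4.62 in CLA, against 7.86, 8.06 and 7.54 in LA. At 12 h it had 4.41, 4.94, 4.81 and 5.80 in CLA, against 6.25, 8.00, 6.27 and 7.80 in LA. From 8 h on no CLA array reached the lowest LA array of its time. At 24 h it had 5.04, 5.67 and 3.84 in CLA, against 7.15, 8.00 and 6.82 in LA. Mgll fell at 8 h by a difference of -1.57 ± 0.34 (limma adjusted p = 0.033), at 12 h by -2.09 ± 0.29 (adjusted p = 0.00219) and at 24 h by -2.47 ± 0.33 (adjusted p = 0.000877). With the larger offset of 57.7 the 24 h difference was -1.31. Without array sets the adjusted p was 0.488, 0.295 and 0.322 at 8, 12 and 24 h. The paired fit kept the 24 h call (adjusted p = 0.0475) and lost that at 12 h (0.101). The 8 h call was lost in 14 of 20 alternatives, among them each array left out in turn (adjusted p from 0.0583 without CLA replicate 1 to 0.191 without CLA replicate 2), and with the values as deposited the adjusted p was 0.338.

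Mgll is the gene with the most probe sets. One of its 4 was at or below 0 in 24 of 25 arrays and did not pass the filter. The brightest is the one described above. The second brightest fell by a difference of -2.06 ± 0.32 at 12 h and -2.04 ± 0.36 at 24 h (limma adjusted p over all probe sets = 0.00533 and 0.00876). The dimmest of the 3 differed by -1.51 ± 0.43 at 12 h (adjusted p = 0.0874) and fell at 24 h by a difference of -2.05 ± 0.50 (adjusted p = 0.0436). All 3 measured probe sets of Mgll thus had fallen at 24 h.

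**Figure D2:**
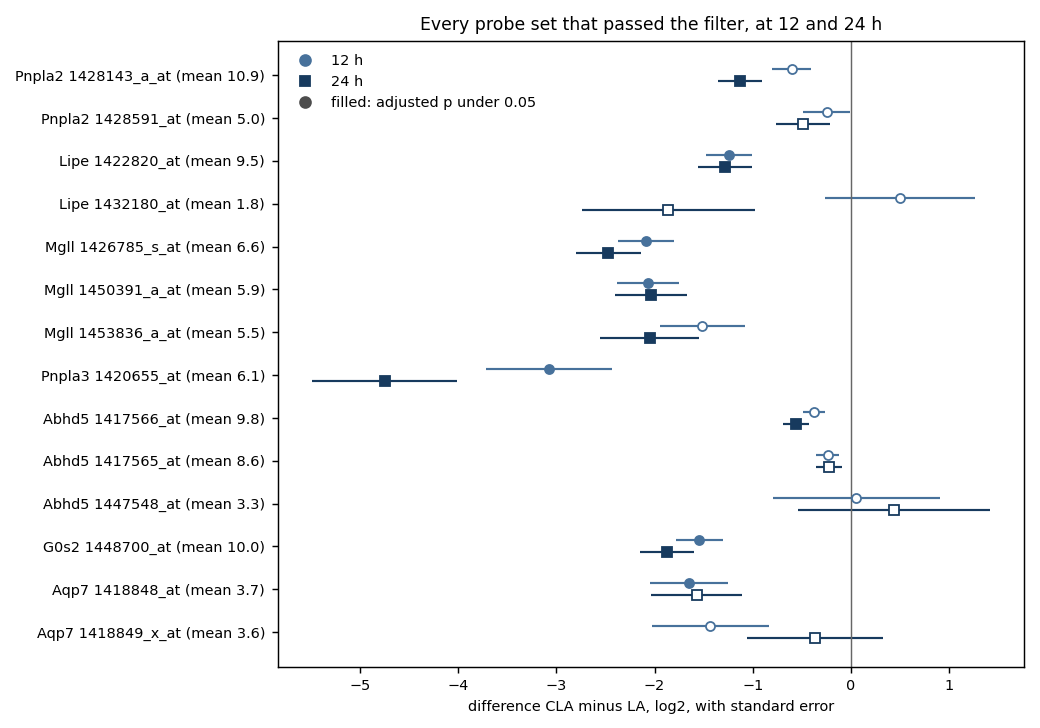
Difference CLA minus LA (log2, with standard error) of the 14 probe sets that passed the filter, with circles for 12 h and squares for 24 h, filled where the adjusted p over all probe sets was under 0.05; the mean level of each probe set stands beside its name. The 3 Mgll probe sets lie between -1.51 and -2.47, whereas the dimmer probe sets of Pnpla2, Lipe, Abhd5 and Aqp7 are all open symbols.

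Pnpla3 had the widest range of levels. It had 6.85 and 6.88 in CLA at 4 h, against 9.99, 7.30 and 6.85 in LA, and 8.13, 5.73 and -0.02 in CLA at 8 h, against 9.88, 7.63 and 7.04 in LA. At 12 h it had 5.67, 4.99, -0.02 and 5.56 in CLA, against 6.49, 8.58, 5.84 and 7.58 in LA. The value of -0.02 is the floor of the scale, where the deposited intensity was at or below 0, and it occurred in CLA replicate 3 at 8 and 12 h. At 24 h Pnpla3 had 4.48, 3.68 and 0.43 in CLA, against 7.66, 9.04 and 6.16 in LA. The groups did not overlap at 12 and 24 h. Pnpla3 fell at 12 h by a difference of -3.07 ± 0.64 (limma adjusted p = 0.0153) and at 24 h by -4.75 ± 0.74 (adjusted p = 0.00237), and -2.33 ± 0.77 at 8 h (adjusted p = 0.148) did not pass. The size depends on the offset, since near the floor a small offset stretches differences. With the offset of 57.7 the differences were -1.21, -1.25 and -1.98 at 8, 12 and 24 h, and the 8 h difference then passed (adjusted p = 0.0163). At 12 and 24 h the adjusted p was 1 without array sets and 0.349 and 0.213 in the paired fit. The 12 h call was also lost with the values as deposited (0.0566), without the dim array set (0.0899), without CLA replicate 2 (0.0657) or 3 (0.0596) and without LA replicate 2 (0.0624) or 3 (0.0558).

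Aqp7, the glycerol channel, was near the lower end of the scale. It had 3.70 and 3.76 in CLA at 4 h, against 5.19, 4.69 and 4.07 in LA, without overlap, and 5.07, 3.53 and 0.98 in CLA at 8 h, against 5.67, 4.31 and 3.02 in LA. At 12 h it had 3.27, 3.12, -0.02 and 2.88 in CLA, against 4.44, 4.68, 1.69 and 5.05 in LA. At 24 h it had 3.82, 3.16 and 2.65 in CLA, against 5.53, 5.27 and 3.56 in LA. Groups overlapped from 8 h on, and CLA was the lower array in every set. Aqp7 fell at 12 h by a difference of -1.65 ± 0.40 (limma adjusted p = 0.0303), a call that was lost in 12 of 22 alternatives, among them without array sets (adjusted p = 1), in the paired fit (0.125), without CLA replicate 2, 3 or 4 (0.0855, 0.108 and 0.066) and without LA replicate 2 or 4 (0.1 and 0.119). The differences of -0.42 ± 0.53 at 4 h and -0.41 ± 0.48 at 8 h (adjusted p = 0.845 and 0.74) did not pass. At 24 h the difference of -1.57 ± 0.46 (adjusted p = 0.0692) did not pass. With the offset of 57.7 the differences were -0.29 at 12 h (adjusted p = 0.0544) and -0.41 at 24 h (adjusted p = 0.0179), so that the later one passed there. The second Aqp7 probe set differed by -1.43 ± 0.60 at 12 h and -0.37 ± 0.69 at 24 h (adjusted p = 0.259 and 0.936 over all probe sets).

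**Figure D3:**
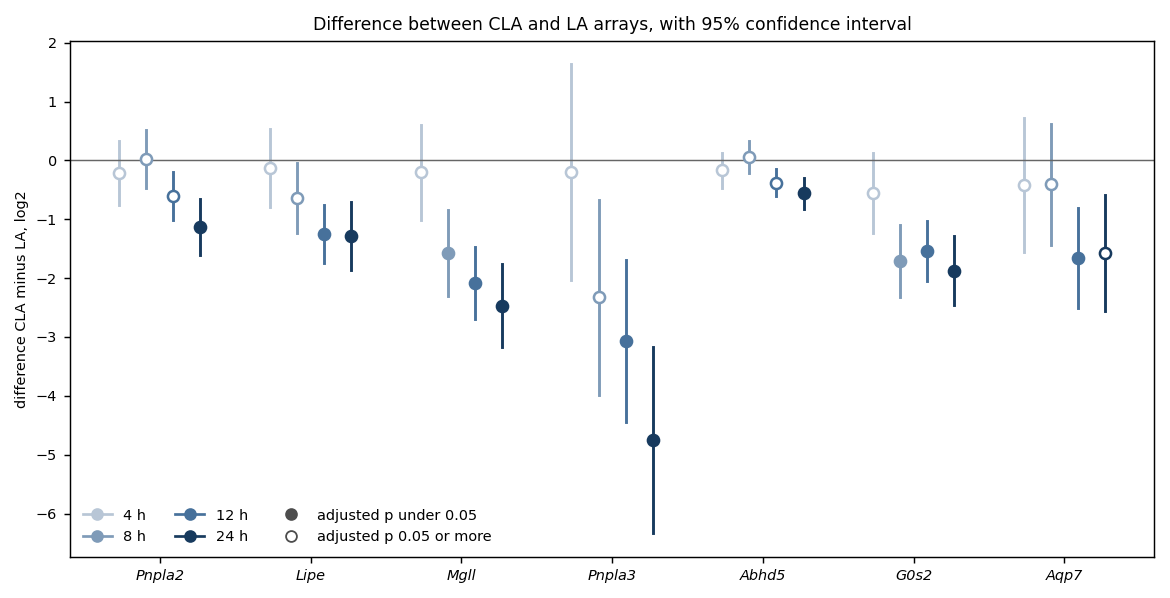
Difference CLA minus LA (log2) of each gene at 4, 8, 12 and 24 h from limma with array sets, with its 95% confidence interval; filled points had an adjusted p under 0.05. All intervals at 4 h include 0 and all intervals at 12 and 24 h lie below 0.

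Set side by side, the times differ in how many of the 7 genes passed. At 4 h 0 of 7 did, by limma, with 0 at an unadjusted p under 0.05, while 0.0139% of all genes were called lower and 4.94% were lower before adjustment. All 7 differences were below 0, from -0.56 for G0s2 to -0.12 ± 0.31 for Lipe (limma adjusted p = 0.936), as were 48.8% of the differences of all genes. At 8 h 2 of 7 fell, against 0.561% of all genes. At 12 h 5 of 7 fell, against 2.4% of all genes, with a median difference of -1.54 where the median of all genes was 0.00. At 24 h 6 of 7 fell, against 3.72% of all genes, with a median of -1.57 where that of all genes was 0.01. None of the 7 rose at any time, where 0.00693%, 1.25%, 2.29% and 0.88% of all genes did at 4, 8, 12 and 24 h. CLA arrays lay wholly below LA arrays for 2, 3, 3 and 3 of the 7 genes at 4, 8, 12 and 24 h, against 5.38%, 7.15%, 1.16% and 7.05% of all genes.

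Within array sets the direction can be read pair by pair. Sets with both CLA and LA arrays numbered 2, 2, 4 and 3 at 4, 8, 12 and 24 h. The 7 genes vary together across arrays, so their differences within a set are not independent. CLA was lower in 13 of 14 differences at 4 h, 12 of 14 at 8 h, 27 of 28 at 12 h and 21 of 21 at 24 h. The exceptions were Pnpla2 in set B at 4 h (0.20), Abhd5 in both sets at 8 h (0.01 and 0.15) and Abhd5 in set E at 12 h. A gene was lower in every such set for 6, 6, 6 and 7 of the 7 genes, against 25.2%, 34.5%, 12.5% and 21.8% of all genes. The pairs of set E, which holds LA 12 h replicate 1 with its high actin ratio, were the closest ones at 12 h for 6 of the 7 genes. The exception was Mgll, for which set D had the smallest gap, with -1.45 against -1.84 in set E. Without the 2 arrays of high actin ratio, 7 of the 7 genes passed at 12 h. Lipe then differed by -1.52 and G0s2 by -1.82 at 12 h, and Pnpla2 and Abhd5 passed too, with -0.77 and -0.51 (limma adjusted p = 0.0409 and 0.00865). The counts at 8 and 24 h without them were 2 and 6 of 7, as with all arrays. The share of all genes called in this fit is not given here, so its counts are not read as particular to the 7 genes.

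Whether the difference grew with time was tested as a change of the effect itself. By limma's moderated F-test over the 4 times none of the 7 genes passed after adjustment, and 6 had an unadjusted p under 0.05, all but Aqp7. Over all genes 0.0139% passed after adjustment and 9.27% before it. The effect at 24 h minus that at 4 h was -2.27 ± 0.50 for Mgll (limma adjusted p = 0.103), -4.55 ± 1.13 for Pnpla3 (adjusted p = 0.13) and -1.31 ± 0.42 for G0s2 (adjusted p = 0.222). None of the 7 passed there either, against 0.146% of all genes. The later start of Pnpla2 and Abhd5 beside Mgll and G0s2 is therefore a description of calls and not a tested difference.

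In LA arrays alone the genes did not pass a test for change over time (limma's moderated F-test, 0 of 7 after adjustment, against 0% of all genes). Before adjustment Aqp7 passed, as did 8.85% of all genes. G0s2 averaged 10.67 ± 0.39 (SD, n = 3), 10.90 ± 0.32 (n = 3), 10.65 ± 0.40 (n = 4) and 10.77 ± 0.17 (n = 3) in LA at 4, 8, 12 and 24 h. The order of its 8 group means put the 4 LA groups first and then CLA at 4, 12, 8 and 24 h. The gaps between LA 12 h and CLA 4 h and between CLA 4 h and CLA 12 h exceeded the larger SD of the pair, and the other 5 did not. For Mgll the order was LA 4 h, LA 8 h, CLA 4 h, LA 24 h, LA 12 h, CLA 8 h, CLA 12 h and CLA 24 h, and 1 gap, that of 1.27 between LA 12 h and CLA 8 h, exceeded the larger SD. For Pnpla3 the 4 LA groups came first and for Abhd5 and Aqp7 too. For Pnpla2 and Lipe, CLA at 4 h had the highest mean, and CLA at 8, 12 and 24 h the 3 lowest. For these 5 genes no gap between neighbouring groups exceeded the larger SD. The group means are not corrected for array sets, and the times hold different sets, so the order mixes sets with time. For Pnpla2 the LA mean was 11.65 at 4 h and 10.85 at 24 h. The fit with array sets put LA at 24 h minus 4 h at 0.18 ± 0.25 for that gene. For G0s2 and Aqp7 both the means and the fit were higher at 24 h.

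The authors' deposited tables, which combine the arrays of a group hold the 7 brightest probe sets too. Their direction is not stated and was read from the values as CLA over LA. In the authors' deposited table for 24 h the ratio was 0.178 for Mgll, 0.282 for G0s2, 0.156 for Pnpla3, 0.408 for Pnpla2, 0.45 for Lipe, 0.658 for Abhd5 and 0.326 for Aqp7. The p-values in the authors' deposited table for 24 h were 2e-05 for Mgll and 2.99e-10 for G0s2, 0.0123 for Pnpla3 and 0.0244 for Abhd5. Those of Pnpla2, Lipe and Aqp7 were 0.0572, 0.0631 and 0.117 in the authors' deposited table. At 4 h the authors' deposited table gives G0s2 a ratio of 0.569 with a p-value of 0.00691, the lowest p among the 7 genes at that time.

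Genes around the lipases were followed in lists. Of 23 genes for lipolytic signalling 18 were tested, and 1, 3 and 4 of them fell at 8, 12 and 24 h while none rose (limma with array sets). Here and for the lists that follow, 0.561%, 2.4% and 3.72% of all genes fell at these times. Prkaca, the catalytic subunit of protein kinase A that phosphorylates Lipe, fell at all 3 times, by a difference of -0.64 ± 0.15 at 24 h (adjusted p = 0.0275). Pde3b, the phosphodiesterase through which insulin lowers cAMP, fell at 24 h by a difference of -2.62 ± 0.42 (adjusted p = 0.0025). The antilipolytic receptor genes Hcar1 and Hcar2 fell at 24 h by differences of -3.10 ± 0.71 and -3.70 ± 0.63 (adjusted p = 0.0219 and 0.00426). Both were at the floor of the scale in at least 1 array, where the small offset stretches differences. Genes known for driving and for restraining lipolysis were thus both among those that fell. The list's median difference at 24 h was -0.31, against 0.01 for all genes.

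Of 14 genes in a list named for droplet proteins that gate lipases 13 were tested, with a median of 0.00 at 24 h. The list also holds genes for other proteins, such as Ubxn4 and Bscl2 below, so the median is not one of lipase-gating proteins alone. Plin2, a droplet coat protein, rose at 8 h by 1.10 ± 0.19 (limma adjusted p = 0.0107) and at 12 h by 0.85 ± 0.16 (adjusted p = 0.01). Ubxn4, a protein of the endoplasmic reticulum, rose at 12 h by 0.61 ± 0.15 (adjusted p = 0.0374). Bscl2 (seipin), needed to form droplets, and Cidec, which fuses them, fell at 12 and 24 h, with differences of -1.79 ± 0.18 and -2.20 ± 0.29 at 24 h (adjusted p = 0.000149 and 0.000791). The other 11 genes did not pass at 24 h.

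Of 21 genes for other lipid hydrolases 18 were tested, and 0, 2 and 4 fell at 8, 12 and 24 h. The carboxylesterase genes Ces1d and Ces1f, which encode lipid-hydrolysing enzymes of fat and liver, fell at 24 h by differences of -2.57 ± 0.39 and -1.71 ± 0.24 (limma adjusted p = 0.00214 and 0.00146). Abhd6 and Abhd12, both monoacylglycerol hydrolases, fell by -1.20 ± 0.29 and -0.74 ± 0.17 (adjusted p = 0.0285 and 0.0229). Of 10 genes for glycerol and fatty acid handling 8 were tested, and Gpd1, which makes glycerol 3-phosphate, fell at 12 and 24 h, by a difference of -1.94 ± 0.38 at 24 h (adjusted p = 0.00904).

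Of 14 genes for regulators of lipase genes all were tested, and 2, 5 and 5 fell at 8, 12 and 24 h. Klf15 and Mlxipl fell at 24 h by differences of -5.21 ± 0.87 and -4.96 ± 0.86 (limma adjusted p = 0.00375 and 0.00449), and Nr1h3 and Cebpa by -1.19 ± 0.20 and -1.37 ± 0.20 (adjusted p = 0.00434 and 0.00181). All 4 are transcription factor genes of fat cells, and Klf15 and Mlxipl were each at the floor of the scale in at least 1 array. Egr1, a zinc finger factor known to repress Pnpla2 in adipocytes, rose at 8 h by 3.05 ± 0.47 and at 12 h by 1.55 ± 0.39 (limma adjusted p = 0.00651 and 0.0366). At 4 h none of the genes in these 5 lists passed the threshold, and without array sets none passed at any time. None passed in the paired fit at 12 or 24 h either, where the smallest adjusted p among the genes named here was 0.0867, for Mlxipl at 24 h.

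**Figure D4:**
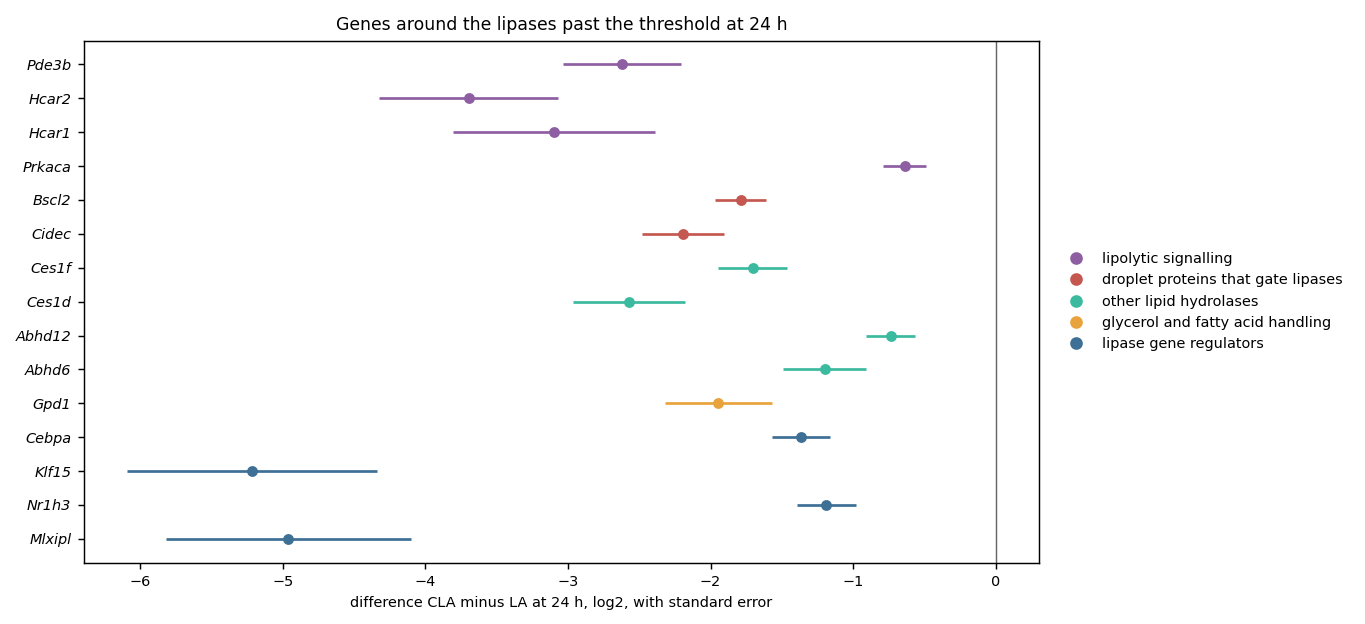
Difference CLA minus LA at 24 h (log2, with standard error) of up to 4 genes per list with the smallest p among those past the threshold, coloured by list. All 15 lie below 0, from -5.21 for Klf15 to -0.64 for Prkaca.

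Most markers of fat cells were lower as well. Of 10 adipocyte markers 8 were measured, and 2, 4 and 6 of them fell at 8, 12 and 24 h in limma with array sets, against 0.561%, 2.4% and 3.72% of all genes, and 0 passed in the paired fit. Fabp4, the fatty acid carrier of fat cells, did not pass, with a difference of 0.02 ± 0.08 at 12 h and -0.08 ± 0.10 at 24 h (limma adjusted p = 0.95 and 0.798), nor did Lep, with -1.42 ± 0.66 at 24 h (adjusted p = 0.284). Fabp4 stood at a median percentile of 100, at the top of the scale, where a change may be compressed, which was not tested. Adipoq stood at the same percentile and fell at 24 h by a difference of -0.78 ± 0.17 (limma adjusted p = 0.0168). The 8 measured adipocyte markers summed to 11290 to 19520 in CLA at 24 h, against 22410 to 32420 in LA. Adipoq and Fabp4, which define adipocytes, were above the array's median in all 25 arrays, and Lep in 4. Of 6 preadipocyte and fibroblast markers 0 passed limma's threshold at any time, and their sum at 24 h was 11520 to 17670 in CLA, against 10390 to 15340 in LA. The sum of 5 macrophage markers at 24 h was 135.0 to 197.5 in CLA, against 91.3 to 142.3 in LA, with 3 tested and 0 called. Of the endothelial markers Pecam1 was at the floor in every array. Their part in the lipase results was not tested, and in bulk RNA fewer fat cells and less of a transcript per fat cell cannot be told apart.

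The genes whose levels ran most alike across the 25 arrays, after the array-set term was removed, were found by Pearson's r over all kept genes. For Pnpla2 they were Cidec (r = 0.949) and Pcx (0.945), and for Pnpla3 Klf15 (0.968) and Coq8a (0.922). For Lipe they were Sh2b2 (0.951) and Coq8a (0.950), for Mgll Aoc3 (0.960) and Lpin1 (0.956), and for G0s2 Hdhd3 (0.959) and Vsir (0.958). Abhd5 and Aqp7 had weaker matches, Mrpl45 (0.868) and Pparg (0.862) for Abhd5 and Fibin (0.885) and Aco1 (0.805) for Aqp7. Among the 7 genes themselves r ran from 0.394 between Pnpla2 and Aqp7 to 0.941 between Pnpla3 and G0s2. These values include the difference between the treatments and describe 25 arrays that share cell line and processing.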

How the data were processed

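RNA of 3T3-L1 adipocytes was measured on 25 one-colour Affymetrix arrays, from biotin-labelled cRNA of Trizol-extracted total RNA, per the labels. The deposited value table holds 1 linear intensity per probe set. How it was summarised and scaled is not given in the sources used here, 21.6% of values lie at or below 0, and array means run from 72.6 to 149.2. The authors' deposited comparison tables give a ratio and absolute fold change, a log10 ratio and a p-value per probe set. The direction of the ratio was read from the authors' deposited first intensity, which lay closer to the LA than to the CLA arrays at all 4 times.

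Probe sets were named through the platform annotation (34958 with 1 symbol, 932 with several, 9211 with none), and those with 1 symbol were used. Negative values were set to 0, 0.984 (the 25th percentile) was added before log2, and quantile normalisation followed. Each gene took its probe set of highest mean, and 14428 of 18194 genes were kept as brighter than the median of 2 or more arrays. limma 3.58.1 in R 4.3.3 (lmFit, eBayes) fitted 8 group means and 5 array sets (Ward clustering of the arrays, treatment not used), with Benjamini-Hochberg adjustment over all genes. Same-numbered CLA and LA arrays deviated together at 12 and 24 h (r from 0.16 to 0.56 over 7 pairs), and paired p-values are given for these times. At 4 and 8 h, r was over 0.1 in 1 of 2 and 2 of 3 pairs, and no paired p-value is given. The paired fit blocked same-numbered arrays at all 4 times, so the 4 and 8 h pairs also enter its spread. The script was tested on simulated data. Alternatives covered the set term, replicate blocks, scaling, offset, filter, probe sets, spread estimate and left-out arrays.

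The 7 genes, the lists, the array sets and the tests were chosen with earlier results of these data known. All 7 genes were named in each comparison, with the 2 genes most correlated with each and at most 4 called genes per list and time. Promoter windows are those of RefSeq, GRCm38.p6. No genome was used.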

Additional observations from a re-analysis of the deposited data

Results flagged for a closer look

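At 12 h, 2 of the 14 combinations of a gene and a group of 4 arrays held an array that stood apart by Dixon's criterion, which compares the gap to the nearest array with the range of the group. For Pnpla3 in CLA at 12 h the share was 0.88, and for Aqp7 in CLA at 12 h it was 0.883. In both cases CLA replicate 3 was the low array, at the floor of the scale (-0.02), with the others at 5.67, 4.99 and 5.56 for Pnpla3 and at 3.27, 3.12 and 2.88 for Aqp7. Chance alone marks about 1 in 20 such groups. Without this array the 12 h difference was -2.50 for Pnpla3 (limma adjusted p = 0.0596) and -1.39 for Aqp7 (adjusted p = 0.108), so neither passed.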

How the results depend on the processing

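The calls rest on the array sets. Shares of all genes called are given above for the fits with and without array sets and for the paired fit, but not for the other alternatives. The counts of those alternatives are therefore not read as particular to the 7 genes. At 4 h 0 genes passed in each alternative run. At 8 h 2 of 7 passed, against 3 with the larger offset and the floor of 16, 0 without array sets, with the values as deposited and without the dim array set, and 1 with arrays centred on their median, with the mean of probe sets and with every probe set. At 12 h 5 passed, against 7 with an intensity trend and without arrays of high actin ratio, 6 with the larger offset and the floor of 16, 4 with the mean of probe sets, 0 without array sets, 2 with the values as deposited and 2 without the dim array set. At 24 h 6 passed, against 7 with the larger offset, 4 with the mean of probe sets, 0 without array sets and 3 with the values as deposited. Leaving out 1 array gave 0 to 1 at 8 h, 3 to 7 at 12 h (3 without LA replicate 2, CLA replicate 2 or CLA replicate 3) and 3 to 6 at 24 h (3 without LA replicate 2); where 1 CLA array remained at 4 h, its spread was taken from the other groups. The counts for change of the effect and for LA over time were 0 in each alternative, and that for LA over time could not be estimated with a block within time. With the replicate number as a block 1, 2 and 2 genes passed at 8, 12 and 24 h, and with a replicate block within time 0, 0 and 1 (Mgll, adjusted p = 0.0475). For 4 and 8 h no paired p-value is given, since r was -0.245 and 0.0673 in 1 pair each. The block within time still joined same-numbered arrays at these times. Of all 12 pairs, 11 matched their own number best.

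Sign changes occurred only among differences at 4 and 8 h that did not pass. At 4 h Pnpla2 was 0.00793 without array sets, 0.38 with a replicate block within time, 0.0509 with arrays centred on their median, 0.24 with the mean of probe sets, 0.0914 without the dim array set and 0.12 in the authors' deposited table. Lipe was 0.23, 0.61, 0.10, 0.85, 0.0209 and 0.21 under the same 6 and 0.14 with the replicate block, and -0.29 to 0.0369 with 1 array left out. With median centring Pnpla3 was 0.0192, Mgll 0.00994 and Abhd5 0.0470. Abhd5 was 0.56 with the mean of probe sets, and Mgll 0.00185 without the dim array set and -0.50 to 0.0782 with 1 array left out. At 8 h Pnpla2 was -0.72 without array sets and with both blocks, -0.0590 with median centring, -0.0671 with the mean of probe sets, -0.0393 without the dim array set, -0.0686 to 0.10 with 1 array left out and -0.76 in the authors' deposited table. Abhd5 was -0.17 without array sets and with both blocks and -0.18 in the authors' deposited table. The cause was not tested. The median of all genes moved to 0.104 and 0.178 at 4 and 8 h as deposited, and to 0.206 at 4 h with median centring. Dim genes, Aqp7 above all, are limited by signal over background.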
